A study of Mus musculus with 6 samples.

Results

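Notch signalling passes a message between touching cells, and its receptors, ligands and target genes were followed here in testes of newborn Arid4b mutant mice. The set comprised 10 genes picked by symbol from the 22320 genes of the table: the receptor genes Notch1, Notch2 and Notch3, the ligand genes Jag1, Jag2 and Dll4, and the target genes Hes1, Hey1, Hey2 and Heyl. All 10 were found, and all 10 passed the minimum level used for testing.

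Messenger RNA was sequenced from whole testes at postnatal day 1.5, in 2 groups of 3 pools, each pool holding 4 testes. The Arid4bSCKO mice had the genotype Arid4b-/Flox; Amh-cre, with a null and a floxed allele. The control mice, Arid4b+/Flox; Amh-cre, had a wild-type allele where the mutants had the null one. Both groups thus carried a floxed allele and Cre recombinase under the Amh promoter, whose activity marks Sertoli cells, the supporting cells of the testis cords, and both had a hybrid C57BL6/J and 129/SvEv background. The null allele is carried by every cell of the mutants, so cells other than Sertoli cells differed in genotype too. ARID4B is a partner of the retinoblastoma protein and of the Sin3 corepressor.

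When a Notch receptor binds a Delta or Jagged ligand on a neighbouring cell, the receptor is cut and its intracellular part enters the nucleus. There it joins the DNA-binding protein RBPJ and turns on genes of the HES and HEY families, which encode transcriptional repressors. In the fetal and newborn testis the pathway is known to act between Sertoli cells, germ cells, vessels and the precursors of Leydig cells, and in mouse Sertoli cells HES1 and HEY1 are known to repress Gdnf and Cyp26b1.

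For each gene the authors gave a mean per group of log2(normalized count + 1), called its level below, and a comparison of the groups. A difference is the Arid4bSCKO level minus the control level, and its 95% interval was derived from the p-value in the table. Levels of single pools were not analysed here, so which pools were high or low, and whether the groups overlapped, is not given. A gene was called when a moderated limma test, in which genes of like level lend each other their spread, gave an adjusted p below 0.05 over the 19095 genes whose mean level was 1 or more. Depth, estimated from the smallest values in the table, came to about 17.5 M reads (M, mega) in an Arid4bSCKO library and 18.6 M in a control library. Arid4b itself stood at a level of 8.68 in Arid4bSCKO testes and 10.19 in control testes, a difference of -1.51 (95% interval -1.82 to -1.21, limma adjusted p = 2.2e-05). Its FDR in the authors' deposited table was 0.0535, so even the targeted gene did not pass an FDR of 0.05 there. A list of 18 Sertoli cell genes was all detected, the lowest being Cldn11 at 8.93 in control testes. Detection alone does not establish tissue identity.

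None of the 10 genes was called, whereas the moderated limma test called 13.8% of all genes tested. In the authors' deposited table none of the 10 had an FDR below 0.05 either, as 0.26% of all genes did. At an unadjusted p below 0.05 in the authors' deposited table there were 2 of the 10 genes, Notch1 and Hey2, or 20%, against 24.1% of the genes tested (11.4% higher and 12.7% lower). The 3 receptor genes had negative differences, the 3 ligand genes had positive ones, and the 4 target genes had 3 positive and 1 negative. The median difference of the 10 genes was 0.07, against -0.035 over all genes tested. The median size of the difference, sign aside, was 0.21 for the 10 genes and 0.24 for all genes tested. In whole testes, fewer cells of a type and less RNA per cell cannot be told apart.

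**Figure D1:**
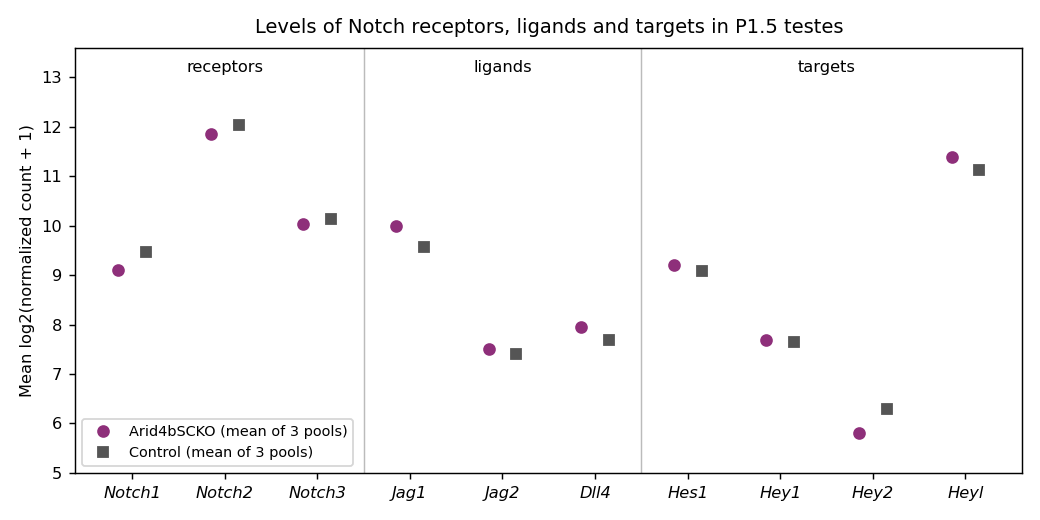
Mean log2(normalized count + 1) of each gene in Arid4bSCKO testes (circles) and control testes (squares), in both cases the authors' mean of 3 pools, grouped by role. Levels ran from 5.82 for Hey2 to 12.03 for Notch2, and no gene stood far from its level in the other genotype.

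All 3 receptor genes stood lower in Arid4bSCKO testes, none of them by enough to be called. Notch1, a receptor that pairs with both Delta and Jagged ligands (chromosome 2, 26457902 to 26503822, minus strand, mm10), had a level of 9.10 in Arid4bSCKO testes and 9.47 in control testes. The difference of -0.37 had a 95% interval of -0.74 to -0.0046, so Arid4bSCKO testes held 77.2% of the control level (59.8% to 99.7%). Its unadjusted p in the authors' deposited table was 0.0483, its FDR there was 0.235, and its limma adjusted p was 0.0600, the smallest of the 10 genes. The interval ended just below 0, and the difference was not called.

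Notch2 (chromosome 3, 98013538 to 98150367, plus strand), the receptor with the most reads of the 3, had a level of 11.85 in Arid4bSCKO testes and 12.03 in control testes. The difference was -0.17 (95% interval -0.39 to 0.05, limma adjusted p = 0.21). Notch3 (chromosome 17, 32120893 to 32166852, minus strand), the receptor of pericytes and vascular smooth muscle, had levels of 10.03 and 10.13 in Arid4bSCKO and control testes, a difference of -0.11 (-0.46 to 0.25, limma adjusted p = 0.573). For Notch2 and Notch3 a fall beyond 76.2% and 72.5% of the control level lay outside the intervals.

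The receptor genes have the longest transcripts of the set, at 9488 bases for Notch1, 10500 for Notch2 and 8016 for Notch3. Over the 17699 genes with a level of at least 1 and a known length, long transcripts were lower in Arid4bSCKO testes. Among 898 genes with a transcript of 8000 bases or more, the median difference was -0.17 and 74.3% were lower, whereas among 1226 genes under 1000 bases the median was 0.15 and 35.0% were lower. Once the loess trend over length was subtracted, the differences of Notch1, Notch2 and Notch3 were -0.21, -0.00047 and 0.05, with limma adjusted p-values of 0.29, 0.998 and 0.836. The sign of the Notch3 difference thus turned, and the common direction of the receptor genes was not kept.

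**Figure D2:**
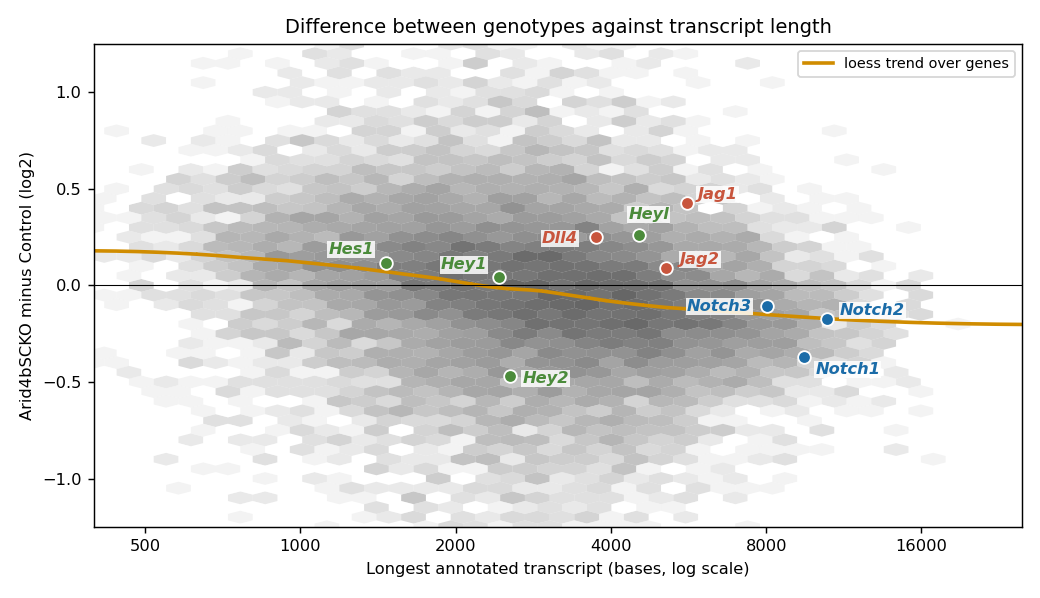
Difference between Arid4bSCKO and control testes (log2, vertical axis) against the length of the longest annotated transcript (bases, log scale), with the 17699 tested genes of known length as grey bins (darker where genes are denser, genes beyond the axes not drawn) and a loess trend in orange. The 3 receptor genes lie at the long end, where the trend is below 0. Of the genes of the set above the trend, Jag1 and Heyl lie farthest from it.

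All 3 ligand genes stood higher in Arid4bSCKO testes, again with none called. Jag1 (chromosome 2, 137081451 to 137116520, minus strand), a Jagged ligand of the somatic cells of the testis, had a level of 9.999 in Arid4bSCKO testes and 9.570 in control testes. The difference was 0.43, or 135% of control, and its 95% interval of -0.14 to 1.00 (90.6% to 200% of control) was the widest among the ligands. Its limma adjusted p was 0.0798 and its FDR in the authors' deposited table was 0.343. With the trend over transcript length removed it was called higher, at 0.55 with a limma adjusted p of 0.0313.

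Dll4 (chromosome 2, 119325784 to 119335666, plus strand), a Delta ligand made by endothelial cells of arteries and sprouting vessels, had a level of 7.94 in Arid4bSCKO testes and 7.69 in control testes. The difference was 0.25 (95% interval -0.09 to 0.59, limma adjusted p = 0.289). Jag2 (chromosome 12, 112908590 to 112929495, minus strand), the other Jagged ligand, had levels of 7.50 and 7.41 in Arid4bSCKO and control testes, a difference of 0.09 (-0.36 to 0.55, limma adjusted p = 0.769). The intervals of Dll4 and Jag2 admit up to 151% and 146% of the control level.

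Target genes are the readout of the pathway. Hes1 (chromosome 16, 30065357 to 30067796, plus strand), a repressor of the HES family induced by Notch in many tissues, had a level of 9.20 in Arid4bSCKO testes and 9.08 in control testes. The difference was 0.12 (95% interval -0.21 to 0.44), or 108% of control (86.5% to 136%), with a limma adjusted p of 0.554. Hey1 (chromosome 3, 8663359 to 8667038, minus strand), a HEY repressor of endothelial and Sertoli cells, had levels of 7.69 and 7.64 in Arid4bSCKO and control testes. Its difference of 0.05 (-0.40 to 0.49, limma adjusted p = 0.891) was the smallest of the set.

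Heyl (chromosome 4, 123233556 to 123249870, plus strand), a HEY repressor known as a target of NOTCH3 in vascular smooth muscle, had a level of 11.39 in Arid4bSCKO testes and 11.13 in control testes. The difference of 0.26 had a 95% interval of -0.03 to 0.55, or 120% of control (97.8% to 147%), and a limma adjusted p of 0.0943. With the length trend removed it was called higher, at 0.36 with a limma adjusted p of 0.0296. Under that correction 2 of the 10 genes, Jag1 and Heyl, were called higher and 0 lower, against 8.57% and 4.47% of all genes tested in that setting (13% together). Among the same 17699 genes with no trend removed neither was called, with limma adjusted p-values of 0.0723 for Jag1 and 0.0878 for Heyl.

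Hey2 (chromosome 10, 30832359 to 30842783, minus strand), the HEY repressor of arterial endothelium and heart muscle, was the target gene with a negative difference. Its level was 5.82 in Arid4bSCKO testes and 6.28 in control testes, the lowest of the 10 genes in each group. The difference of -0.47 (95% interval -0.86 to -0.07), or 72.3% of control, had the smallest unadjusted p of the set in the authors' deposited table, 0.03, with an FDR there of 0.19. Its limma adjusted p was 0.174, since genes at levels of 5 to 7 had a median spread between pools of 0.30 log2 units and that of Hey2 alone was 0.17. The length trend hardly touched this difference, which was then -0.45.

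**Figure D3:**
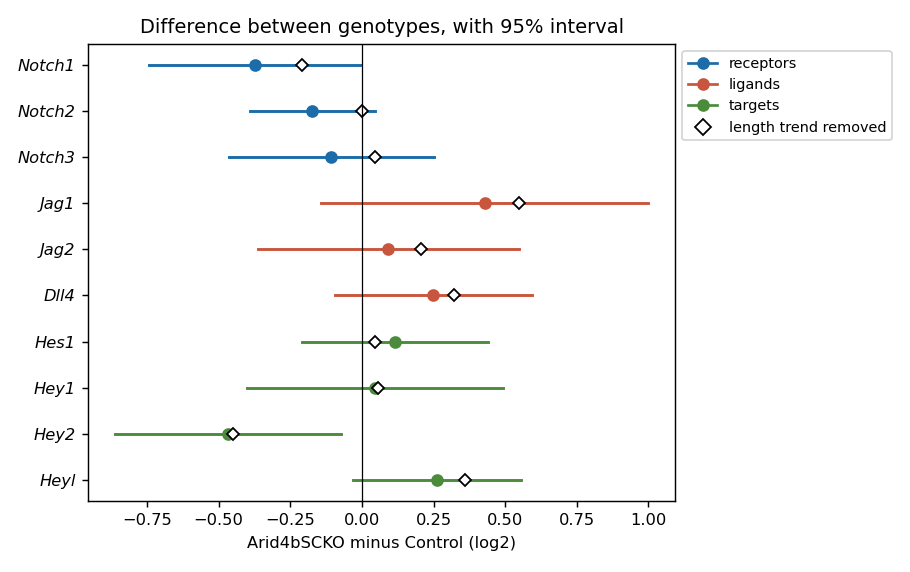
Difference between Arid4bSCKO and control testes (log2, horizontal axis) for the 10 genes, with filled circles for the difference, lines for its 95% interval and open diamonds for the difference with the length trend removed. The intervals of Notch1 and Hey2 lie below 0, and the other 8 include 0. The diamonds of Jag1, Jag2, Dll4, Hey1 and Heyl are farther from 0 than their circles.

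The authors' log2 ratio of group medians, given in the authors' deposited table beside the means, had the same sign as the difference of means for all 10 genes. It was 0.18 for Hey1 and 0.23 for Hes1 in the authors' deposited table, above their differences of means of 0.05 and 0.12. For Jag1 the ratio of medians in the authors' deposited table was 0.32, below its difference of means of 0.43.

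Set against transcript length, the target gene Heyl was the most abundant of the 10, at 591 normalized counts per kilobase of transcript in Arid4bSCKO testes and 493 in control testes. Hes1 had 399 and 368 per kilobase in Arid4bSCKO and control testes, and the receptor gene Notch2 had 352 and 397. In control testes the gap between Notch2 and Hes1 was smaller than the spread between pools, as were the gaps between Notch3 and Jag1, Hey1 and Notch1, and Jag2 and Hey2. Notch2 was thus the most abundant of the 3 receptor transcripts, above Notch3 (130 per kilobase in Arid4bSCKO testes, 140 in control testes) and Notch1 (57.7 and 74.8 in Arid4bSCKO and control testes). Jag1 was the most abundant of the 3 ligand transcripts of the set, at 182 per kilobase in Arid4bSCKO testes and 135 in control testes. Dll4 had 65.4 and 55.0 and Jag2 35.2 and 33.0 per kilobase in Arid4bSCKO and control testes, and Hey2 was lowest at 21.7 and 30.2. These values depend on which annotated transcript is taken as the length.

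**Figure D4:**
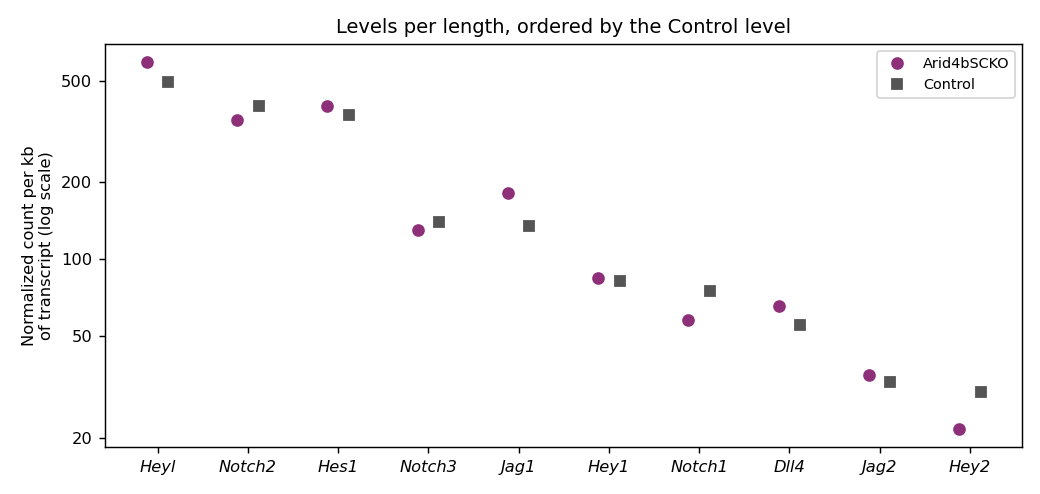
Normalized count per kilobase of the longest annotated transcript (log scale) for the 10 genes in Arid4bSCKO testes (circles) and control testes (squares), ordered from high to low by the control level. Heyl, Notch2 and Hes1 lead in each genotype, all at 352 per kilobase or more, and Hey2 is lowest.

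Promoter sequences from RefSeq (GRCm38.p6, 250 bases before to 50 after the start of the gene) were at hand for 7 of the 10 genes, those of the 3 receptors, the 3 ligands and Hey2. The sequence GTGGGAA, to which RBPJ is known to bind, was searched on both strands. It occurred in 1 of the 7 windows, that of Hey2, and in 6.38% of 32851 promoter windows of the same length. The shorter TGGGAA, which every GTGGGAA contains, was found in the same 1 of 7 windows and in 25.6% of all windows. The Hey2 window (chr10:30842734-30843033, minus strand) held TTCCCAC, its reverse complement, at positions -207 to -201 and GTGGGAA at positions -4 to 3, counted from the start of the gene with 1 as its first base and no position 0. It is printed 5′ to 3′ with the matches in capitals, beside the Notch1 window (chr2:26503773-26504072, minus strand) and the Jag1 window (chr2:137116471-137116770, minus strand), the receptor and the ligand with the smallest p-values, which hold no match.
Hey2: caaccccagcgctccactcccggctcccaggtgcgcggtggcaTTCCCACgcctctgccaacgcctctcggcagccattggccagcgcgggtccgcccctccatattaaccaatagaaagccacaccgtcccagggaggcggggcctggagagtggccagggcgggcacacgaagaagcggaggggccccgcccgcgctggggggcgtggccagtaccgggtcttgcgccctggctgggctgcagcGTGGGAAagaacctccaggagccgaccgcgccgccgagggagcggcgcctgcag
Notch1: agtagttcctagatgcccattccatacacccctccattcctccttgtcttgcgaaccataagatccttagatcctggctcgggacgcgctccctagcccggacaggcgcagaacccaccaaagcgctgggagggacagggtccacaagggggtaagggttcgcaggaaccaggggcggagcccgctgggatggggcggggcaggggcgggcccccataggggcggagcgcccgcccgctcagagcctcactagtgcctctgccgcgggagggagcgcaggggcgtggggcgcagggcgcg
Jag1: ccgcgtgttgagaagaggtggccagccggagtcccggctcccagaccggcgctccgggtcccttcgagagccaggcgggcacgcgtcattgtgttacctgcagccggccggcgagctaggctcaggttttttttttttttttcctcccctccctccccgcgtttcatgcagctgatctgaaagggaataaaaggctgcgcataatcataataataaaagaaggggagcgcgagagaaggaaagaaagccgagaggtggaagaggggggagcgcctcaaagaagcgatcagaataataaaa
The Jag1 window was the poorest in G and C of the 7, at 55.7%, against 68.3% for Notch1 and 72.0% for Hey2. Promoters of Hes1, Hey1 and Heyl were not used here. A match of these letters is a description of the window and was not tested against binding.

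The rest of the pathway was described from a list of 74 symbols grouped by role, of which 73 were in the table and 72 were tested. The symbol not found was Kyat1, which was entered with the corepressors although it is not known as a gene of the pathway. The moderated limma test called 6 higher and 6 lower, or 16.7%, against 7.37% and 6.46% of all genes tested (13.8% together). None passed the FDR in the authors' deposited table, where 8 had an unadjusted p below 0.05 with a positive difference and 16 with a negative one, or 11.1% and 22.2%, against 11.4% and 12.7% of all genes tested. The median difference of the 72 genes was -0.10. With the length trend removed 6 were called higher and 1 lower, and the 5 lost lower calls were Dtx4, Ep300, Maml3, Mib1 and Ncstn, all 5 of which were called among the same genes of known length with no trend removed. With neither a trend of the spread on level nor robust fitting, 1 of the 12 calls was left, that of Cntn1, where 1.24% of all genes tested were called. None of the 10 Notch genes was called in that setting.

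Among 8 further receptor and ligand genes 1 was called higher and 1 lower, or 25%, against 13.8% of all genes tested. The gene called higher was Dner. Dner, a transmembrane protein with EGF repeats known as a noncanonical Notch ligand in neurons, had a level of 9.88 in Arid4bSCKO testes and 8.18 in control testes. The difference of 1.70 (95% interval 0.69 to 2.70, limma adjusted p = 0.00871) was the largest rise of the pathway list, at 324% of control. Cntn1, a neural adhesion protein described as another noncanonical ligand, was called lower, with levels of 5.01 and 6.09 in Arid4bSCKO and control testes and a difference of -1.08 (-1.49 to -0.68, limma adjusted p = 0.0134). The canonical ligand genes Dll1 and Dll3, picked with their values known, were at -0.08 (-1.13 to 0.96) and -1.47 (-2.35 to -0.60). Dll3 was not called (limma adjusted p = 0.0506) and lay at a level of 2.41 in Arid4bSCKO testes and 3.88 in control testes, where few reads were counted. It was called lower with a minimum level of log2(5 + 1) (limma adjusted p = 0.0478) and among genes of known transcript length (limma adjusted p = 0.0466).

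Enzymes that cut the receptor had 1 call in each direction among 10, or 20%, against 13.8% of all genes tested. Furin, the protease that cleaves Notch on its way to the surface and many other proproteins, was called higher at 0.87 (95% interval 0.44 to 1.30, limma adjusted p = 0.00115). Its level was 11.94 in Arid4bSCKO testes and 11.07 in control testes, or 183% of control. Ncstn, the nicastrin subunit of gamma-secretase, was called lower at -0.26 (-0.36 to -0.17, limma adjusted p = 0.0376), or 83.3% of control, and missed the threshold with the length trend removed, where its difference of -0.24 was nearly as large (limma adjusted p = 0.0592). Aph1b and Aph1c are close copies of each other, and reads may be split between them.

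Lfng, the lunatic fringe glycosyltransferase that shifts receptor preference from Jagged towards Delta ligands, was the call among 6 glycosylation genes. This 1 call is 16.7% of them, against 13.8% of all genes tested. Lfng had levels of 9.57 and 9.20 in Arid4bSCKO and control testes, a difference of 0.37 (95% interval 0.08 to 0.66, limma adjusted p = 0.0414). Of 6 endocytosis genes 1 was called, or 16.7%, against 13.8% of all genes tested. Mib1, the ubiquitin ligase that lets ligands be taken up and so activate receptors, was called lower at -0.43 (-0.65 to -0.21, limma adjusted p = 0.0115). Its transcript of 10231 bases is as long as those of the receptor genes, and with the length trend removed it was not called (-0.26, limma adjusted p = 0.0872).

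Of 12 genes for inhibition and turnover 1 was called higher and 1 lower, or 16.7%, against 13.8% of all genes tested. Numb, an inhibitor of Notch that is passed unequally between daughter cells, was called higher at 0.30 (95% interval 0.09 to 0.52, limma adjusted p = 0.0481). Without a filter on level it missed the threshold (limma adjusted p = 0.0565). Dtx4, a Deltex ubiquitin ligase, was called lower at -0.37 (-0.64 to -0.10, limma adjusted p = 0.0231), and was not called with the length trend removed (limma adjusted p = 0.101).

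Rbpj, the DNA-binding partner of the receptors, was picked after its value was seen. It had levels of 11.37 and 11.34 in Arid4bSCKO and control testes, a difference of 0.03 (95% interval -0.12 to 0.17), and was not called. Among the 10 genes of that complex 1 was called higher and 2 lower, or 30%, against 13.8% of all genes tested. Maml3, a Mastermind coactivator, was called lower at -0.52 (-0.98 to -0.07, limma adjusted p = 0.032). Ep300, the histone acetyltransferase p300, was called lower at -0.36 (-0.63 to -0.10, limma adjusted p = 0.0263). Kat2b, the acetyltransferase PCAF, was called higher at 0.39 (0.22 to 0.57, limma adjusted p = 0.0167). With the length trend removed the limma adjusted p-values were 0.115 for Maml3 and 0.2 for Ep300, while Kat2b was called at 0.0054.

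Of 13 corepressor genes 0 were called by the moderated limma test. An unadjusted p below 0.05 in the authors' deposited table was that of 3, all with negative differences. That is 23.1%, against 24.1% of all genes tested (12.7% lower). The smallest p of these was that of Kdm5a, a histone demethylase, at -0.12 (95% interval -0.18 to -0.07, limma adjusted p = 0.303), which became 0.05 once the length trend was removed. Among 7 further repressors of the HES type 1 was called, or 14.3%, against 13.8% of all genes tested. Bhlhe40, a circadian and stress-responsive bHLH gene, was called higher at 0.70 (-0.04 to 1.44, limma adjusted p = 0.0472). However, its interval from the deposited p included 0, and without a filter on level it was not called (limma adjusted p = 0.0503). Hes5, the other classical Notch target of the HES family, was chosen after its value was seen and stood at -0.27 (-1.44 to 0.90).

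**Figure D5:**
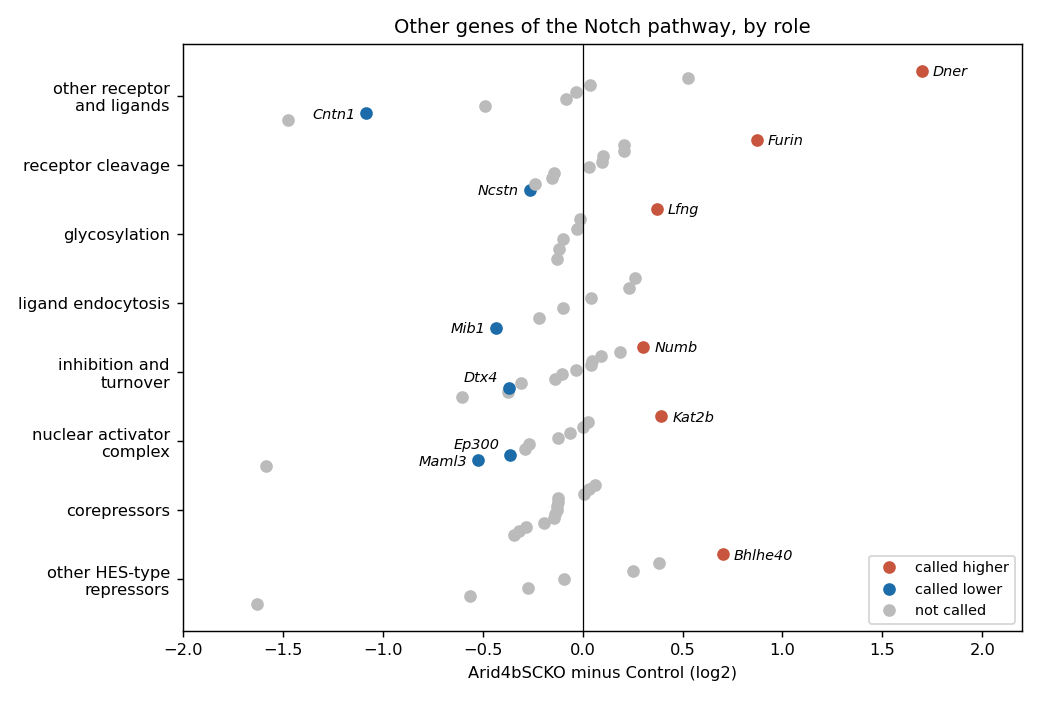
Difference between Arid4bSCKO and control testes (log2, horizontal axis) for the 72 tested genes of the wider pathway, in 8 rows by role, with 1 point per gene. Genes called higher (6) are red and genes called lower (6) are blue, all with their names, and the corepressors hold none.

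The Sertoli cell genes known to be repressed by HES1 and HEY1 were both called lower. Gdnf, the growth factor of spermatogonial stem cells, had levels of 8.65 and 9.75 in Arid4bSCKO and control testes, a difference of -1.10 (95% interval -1.88 to -0.32, limma adjusted p = 0.00782). Cyp26b1, the enzyme that breaks down retinoic acid, had levels of 11.17 and 11.88 in Arid4bSCKO and control testes, a difference of -0.71 (-1.28 to -0.14, limma adjusted p = 0.012). With neither a trend of the spread on level nor robust fitting, both calls were lost (limma adjusted p = 0.0823 for Gdnf and 0.104 for Cyp26b1). Beside them, Hes1 and Hey1 were at 0.12 and 0.05 and not called. Sertoli cell markers were lower in the same comparison, with 9 of 18 called lower and 2 higher. That is 61.1% of the list, against 13.8% of all genes tested (6.46% lower and 7.37% higher). Nr5a1 was at -0.53 and Hsd17b1 at -1.94, both among those called lower. The summed level of the markers was 88367 normalized counts in Arid4bSCKO testes and 146045 in control testes, and none was at 0. The part of the Sertoli cell markers in the differences of Gdnf and Cyp26b1 was not tested.

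Notch genes are also known from vessels. Of 18 endothelial markers 1 was called higher (Robo4, 0.75) and 1 lower (Sox18, -0.82, named after its value was seen), with a median of -0.10, a summed level of 12606 normalized counts in Arid4bSCKO testes and 14083 in control testes, and none at 0. The 2 calls are 11.1% of the list, against 13.8% of all genes tested. Ramp2, a receptor modifier of endothelium, was at -0.29 and not called. Of 6 arterial genes 2 were called higher and 0 lower, or 33.3%, against 13.8% of all genes tested. Efnb2, the ephrin of arteries, was at 0.70 (95% interval 0.28 to 1.11, limma adjusted p = 0.00431) and Nrp1, a VEGF coreceptor, at 0.76 (0.11 to 1.41, limma adjusted p = 0.0211). With neither the trend on level nor robust fitting both calls were lost (limma adjusted p = 0.0762 and 0.112), as were those of Robo4 (0.0883), Sox18 (0.0938) and Mcam (0.0704). The arterial genes summed to 5768 normalized counts in Arid4bSCKO testes and 3800 in control testes. Of these counts Nrp1 held 3718 and 2201 and Efnb2 held 1048 and 645. The other arterial genes were not called, with Gja4 and Gja5 at 0.22, Bmx at 0.01 and Unc5b at -0.02. Of the 12 mural cell genes, a list that includes Notch3, Tagln (0.67) and Mcam (0.65) were called higher and 0 lower. The 2 calls are 16.7% of the list, against 13.8% of all genes tested. Of the 12 differences 8 were positive and 4 negative, with Cspg4 at -0.28 and Pdgfrb at -0.18, and the median was 0.13. The sums were 36568 normalized counts in Arid4bSCKO testes and 30310 in control testes, of which Acta2, not called, held 15729 and 13964. The part of these cells in the values of Dll4, Hey2, Notch3 and Heyl was not tested.

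Markers of other cell types and genes of the immediate-early response were set beside these values. Of 13 macrophage genes 12 were called higher and 0 lower, or 92.3%, against 13.8% of all genes tested. C1qa was at 1.20 and Mrc1 at 0.52, and the sums were 7674 normalized counts in Arid4bSCKO testes and 3518 in control testes. Of 14 germ cell genes 2 were called lower, Dppa4 (-0.86) and Dnmt3l (-1.29), and 0 higher. The sums were 8696 and 10938 in Arid4bSCKO and control testes. The share called was 14.3%, against 13.8% of all genes tested (6.46% lower). Of the 14 differences 11 were negative and 3 positive, with a median of -0.35, against -0.035 over all genes tested. Of 8 Leydig cell genes 0 were called by the moderated limma test. An unadjusted p below 0.05 in the authors' deposited table was that of 1, or 12.5%, against 24.1% of all genes tested. Thbs2 and Lhcgr had the smallest p-values of the Leydig cell genes, with differences of -0.15 and -0.21. The sums were 47598 and 49235 in Arid4bSCKO and control testes. Immediate-early genes, which respond to many stimuli and to handling of tissue, had 10 of 15 called higher and 0 lower. That is 66.7%, against 13.8% of all genes tested. Atf3 was at 3.70 and Ier2 at 0.51, and the sums were 17766 normalized counts in Arid4bSCKO testes and 10267 in control testes. No gene of these 4 lists was at 0 in both groups. With neither a trend of the spread on level nor robust fitting, 1 of the macrophage calls, 4 of the immediate-early calls, 0 of the germ cell calls and 0 of the Sertoli cell calls were left. Their part in the values of the Notch genes was not tested.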

How the data were processed

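Whole testes of 3 Arid4bSCKO and 3 control pools were read by strand-preserving poly(A) RNA sequencing, per the labels' protocols. STAR 2.4 and the mm10 genome are named in the submitters' processing notes, and for counting, strand use and scaling the tools were not given in the sources used here. In their deposit the authors gave 1 table with, per the file headers and column descriptions, mean log2 normalized counts per group, a log2 ratio of group medians, a raw p-value (equal-variance comparison) and a Benjamini-Hochberg FDR. The FDR recomputed from the deposited p-values matched to a relative difference of 4.78e-05. An offset of 1 and the depth were read from genes seen in 1 library, of which 89.7% lay at whole multiples of the worth of 1 read within 0.001, by construction in part, since that worth was taken from the same genes. Starts in the table count from 0 and were raised by 1. In GENCODE M21, exons of Notch1, Notch2, Notch3 and Dll4 overlap those of other gene models. The overlap of Notch2 is on the same strand, and those of Notch1, Notch3 and Dll4 are on the opposite strand. Reads of Notch2 may thus be shared there, and those of the others only if strand was not used in counting.

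Standard errors were worked back from the deposited p-values with 4 degrees of freedom. The implied variances were moderated with limma 3.58.1 in R 4.3.3 (squeezeVar, trend on level, robust) over 19095 genes, after 529 rows taken to hold a filled-in value were left out, and p-values were adjusted by Benjamini-Hochberg. On simulated data with 200 changed genes, this step called 83% of changes of 1 log2 unit and 100% of changes of 2, and 2.14% of its calls were false. The changed genes were all above a minimum count, and genes were drawn independently of each other. The 2.14% is thus not an estimate of the share of false calls in the real data. Smaller changes, such as the differences of the 10 genes, and a trend over transcript length were not simulated. Transcript length is that of the longest GENCODE M21 basic transcript, matched for 89.4% of genes. The genes and lists were chosen with earlier results of these data known. Named by rule were the 10 genes, Arid4b, Gdnf and Cyp26b1, each called gene of a pathway sub-list (or its smallest p), and the 2 smallest p-values of a marker list. Others, among them Gja4, Gja5, Bmx, Unc5b, Cspg4, Pdgfrb, Acta2 and Cldn11, were named outside this rule. Nothing says that the pools came from separate litters, so p-values measure only the spread between these pools, which may be technical. No genes of like pattern are given, because 2 group means hold no pattern over samples.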

Additional observations from a re-analysis of the deposited data

How the results depend on the processing

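None of the 10 genes was called without a filter on level or with a minimum level of log2(5 + 1). The same held without the trend on level, without robust fitting, without both, and with a trend over level removed. It also held, in a setting added after seeing the data, among the genes of known transcript length with no trend removed. Of these settings only removal of the level trend alters the differences, and all 10 signs were kept there. In the others the signs could not change. The deposited ratio of medians kept all 10 signs as well. Removing the trend over transcript length gave 2 of the 10 genes as called higher, Jag1 and Heyl, and turned Notch3 to 0.045 and Kdm5a to 0.0531; both turns follow from subtracting a trend that is negative for long transcripts. Of the wider pathway, 6 higher and 6 lower calls became 0 and 0 without the trend on level, 0 and 1 with neither trend nor robust fitting, and 6 and 1 with the length trend removed. They became 4 and 6 without a filter on level (Numb and Bhlhe40 lost), 6 and 7 with the higher minimum level or among genes of known length (Dll3 gained), and 6 and 7 with the level trend removed (Nedd4 gained). Over the 19095 genes, 2641 calls became 135 without the trend on level and 237 with neither, and 1408 of the 2641 were higher; the cause was not tested. Over the 17699 genes of known length, 1457 of 2751 calls were higher with no trend removed and 1516 of 2308 with the length trend removed. Readjusting the deposited p-values over genes of level 1 or more left 0 calls among the 10 genes and 0 in the wider pathway. The RBPJ motif count stayed at 1 with the shorter motif.

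No paired analysis was possible because the table holds group means and not values per pool, and leaving out each replicate was not run for the same reason. Intervals rest on 4 degrees of freedom, and at low levels, as for Hey2, counting noise adds to the spread.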
